A study of Mus musculus with 12 samples.

Results

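The genes Cda, Gamt, Mccc2, Klhl9, Lhfpl4 and Epop were chosen by their RNA level, which was lower in untreated Faf2 knockout NE-4C cells than in untreated wildtype cells. They are 6 of the 57010 genes in the table and 6 of the 16502 that passed the filter on low counts, and all 6 passed it. The rule set no numeric limit and used the 3 untreated wildtype and 3 untreated knockout libraries, so their difference in those libraries is given below as a description with no test. The question put to the data was whether the lower level persisted after retinoic acid (RA), in libraries that the rule did not use. The fold change tested comes from those libraries. The spread in that test was estimated over all 12 libraries, including those that chose the genes. The test is therefore not fully separate from the choice. NE-4C is a mouse neural progenitor line from embryonic brain that lacks p53, and both genotypes share that background. In the knockout, CRISPR with 2 guides removed exon 4 of Faf2, and the knockout cells (KO) are 1 line grown from a picked colony, set against the parental wildtype line (WT). Bulk mRNA-Seq was done on 12 libraries in 4 groups of 3. WT NO and KO NO cells received no RA and were collected on day 0, and WT RA and KO RA cells received 1 µM all-trans RA for 24 h and were collected on day 3. There is no untreated group of day 3, so differences between RA and NO cells cannot be told apart from time in culture. The 3 libraries of a group came from separate passages, so p-values measure the spread between passages of 1 line per genotype, and loss of Faf2 cannot be told apart from other differences between the clone and its parent.

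The 6 genes do unrelated work in the cell. Cda encodes cytidine deaminase, which turns cytidine into uridine in the salvage of pyrimidines. Gamt encodes guanidinoacetate methyltransferase, which performs the last step of creatine synthesis with a methyl group from S-adenosylmethionine. Mccc2 encodes the beta subunit of the mitochondrial enzyme methylcrotonyl-CoA carboxylase, which acts in leucine breakdown together with the biotin-carrying alpha subunit from Mccc1. Klhl9 encodes a substrate adaptor of the CUL3 ubiquitin ligase that works with KLHL13 in mitosis. Lhfpl4 encodes a membrane protein that holds GABA-A receptors at inhibitory synapses with neuroligin 2. Epop encodes a partner of Polycomb repressive complex 2 (PRC2), the complex that methylates lysine 27 of histone H3, and links it to elongin B and C. FAF2 itself is an ER membrane adaptor that passes ubiquitinated proteins to the p97 ATPase, and RA is the signal that starts neuronal differentiation of NE-4C cells.

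Levels are in CPM, that is deposited counts relative to the library's total after scaling by TMM factors, and n = 3 in every group. Library totals ran from 17370069 to 30738717 deposited counts. The library of KO RA replicate 3 stood apart from the rest. Its TMM factor was 0.394 (0.872 to 1.28 in the other 11), mitochondrial genes took 23.5% of its counts (9.10% to 17.7%) and the 100 most abundant genes 62.5% (37.1% to 50.4%). A floor of 3 counts corresponded to 0.297 CPM there and to between 0.0838 and 0.145 CPM elsewhere. Each test of the 6 genes in KO RA is therefore given with and without this library, and the part of these features in the results was not tested. Faf2 had 50.01, 38.8 and 35.98 CPM in WT NO and 21.0, 21.7 and 25.4 CPM in KO NO. With RA it had 35.1, 37.9 and 49.1 CPM in WT against 36.1, 34.3 and 18.7 CPM in KO. Its log2 fold change was −0.87 ± 0.27 (SE) in NO (edgeR adjusted p = 0.179) and −0.45 ± 0.27 in RA (adjusted p = 0.395). In the edgeR fit without KO RA replicate 3 it was called lower in NO (−0.86, adjusted p = 0.0111). In RA that fit gave −0.21 (adjusted p = 0.489). Since counts are summed over the whole gene, exons outside the deletion still count. The summed level of 7 neural progenitor markers was 466 to 498 CPM in WT NO, 371 to 416 in KO NO, 523 to 721 in WT RA and 766 to 864 in KO RA, and at least 6 of the 7 exceeded 1 CPM on average in every group. The sum does not hold for each marker, and the others are not given singly. Pax6, 1 of the 7, was called lower in KO before RA (log2 −2.50 ± 0.45, edgeR adjusted p = 0.0264). It was also called lower after RA, with 13.8 CPM in WT RA and 2.98 in KO RA (−2.21 ± 0.44, adjusted p = 0.0396). The 3 haematopoietic markers summed to at most 0.557 CPM outside KO RA and to between 2.73 and 3.57 CPM in KO RA, while the 4 endothelial markers summed to 0.563 to 2.81 CPM outside it and 4.16 to 12.6 CPM in it. The 5 pluripotency markers summed to 1208 to 2324 CPM in WT NO, 1424 to 1696 in KO NO, 2189 to 2870 in WT RA and 976 to 1246 in KO RA, above the neural progenitor sum throughout. With RA, the 5 mesenchymal markers summed to 59.9 to 118 CPM in WT and 120 to 262 CPM in KO, and the 6 neuronal markers to 138 to 158 and 141 to 203 CPM. The part of these shifts in the results was not tested, and in bulk RNA fewer cells of a type cannot be told apart from less RNA per cell.

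In untreated cells, all 6 genes were lower in every KO NO library than in every WT NO library, the comparison that chose them, and 15.2% of all tested genes were lower without overlap in it. As a description, the log2 fold change was −4.93 ± 0.78 (SE) for Mccc2, −3.41 ± 0.69 for Klhl9, −2.53 ± 0.48 for Gamt, −2.41 ± 0.33 for Lhfpl4, −2.38 ± 0.31 for Cda and −1.07 ± 0.27 for Epop. These correspond to levels 30.4-fold lower for Mccc2, 10.6-fold for Klhl9, 5.78-fold for Gamt, 5.31-fold for Lhfpl4, 5.21-fold for Cda and 2.10-fold for Epop. Ordered from the most negative log2 fold change, Mccc2 stood at rank 66 of the 16502 tested genes and Epop at rank 1245. The genes also started from different levels. The TPM scale used here is the deposited counts relative to the library's total without TMM factors. It carries the same correction for length as CPM. On it the WT NO means were 162 ± 20.6 (SD) for Epop, 21.3 ± 4.83 for Klhl9, 10.4 ± 2.00 for Gamt, 10.1 ± 1.84 for Mccc2, 8.96 ± 4.31 for Lhfpl4 and 5.32 ± 0.20 for Cda. The levels of Gamt, Mccc2 and Lhfpl4 lay within their SDs of each other, whereas Epop stood far above the other 5.

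After RA the 6 genes took 3 courses. Mccc2, Klhl9 and Cda lay low in KO cells with and without RA, Gamt stood much nearer to WT in KO RA replicates 1 and 2, and for Lhfpl4 and Epop the WT level itself was lower with RA, at or near that of the KO cells. In CPM with TMM factors, the 5 genes other than Epop were lower in every KO RA library than in every WT RA library. Of the 6, 0 were higher without overlap. The patterns were found in 10.9% and 9.97% of all tested genes. On the TPM scale Gamt and Lhfpl4 overlapped. Gamt had 8.62 and 10.2 in KO RA replicates 1 and 2 against 9.34 in WT RA replicate 2. Lhfpl4 had 1.933 in KO RA replicate 1 against 1.928 in WT RA replicate 3. With edgeR's quasi-likelihood test adjusted over all tested genes, 2 of the 6, Mccc2 and Cda, were called lower in KO RA than in WT RA and 0 were called higher, where 0.358% of all genes were called lower. Without KO RA replicate 3, Mccc2, Cda and Klhl9 were called lower, where 5.44% of all genes were, and Epop was called higher, as were 4.42% of all genes.

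**Figure D1:**
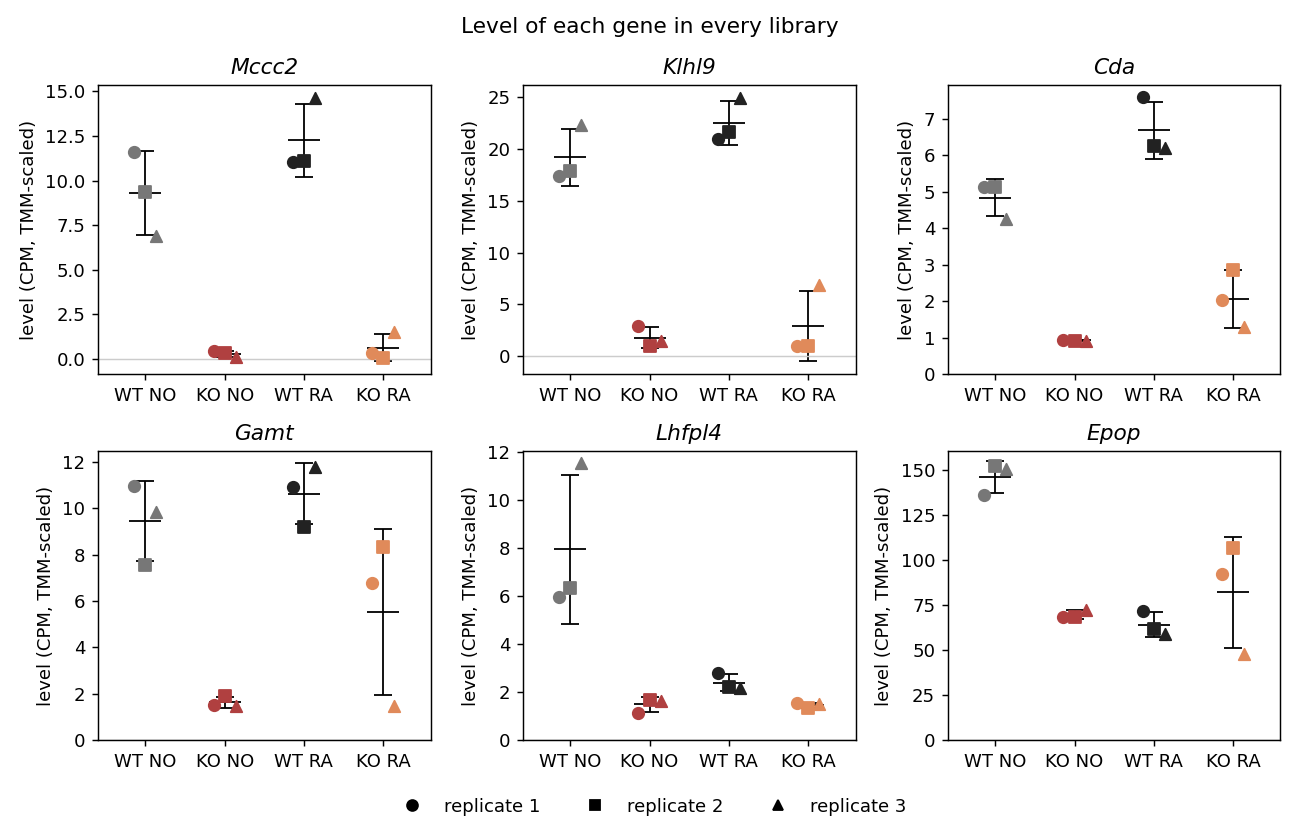
Level of each gene in every library (y axis, CPM with TMM scaling) by group (x axis), with the horizontal line at the mean, error bars at 1 SD (n = 3) and 1 marker shape per replicate number. Mccc2 and Klhl9 lay near the bottom in KO RA, Gamt spread from 1.49 to 8.35 CPM there, and Epop in WT RA lay between 59.2 and 71.9 CPM, next to the KO NO libraries.

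The promoters of 3 of these genes are shown because their courses differ: Mccc2 and Klhl9 had the most negative log2 fold changes of KO against WT before and after RA, and Gamt neared WT in 2 KO RA libraries. Each run is the 250 bases before the start of the gene's canonical transcript (GENCODE annotation) in mouse genome GRCm39, on the minus strand, written 5′ to 3′ with every CpG dinucleotide in capitals. The windows are chr13:100152179-100152428 for Mccc2, chr4:88640703-88640952 for Klhl9 and chr10:80096861-80097110 for Gamt.
Mccc2: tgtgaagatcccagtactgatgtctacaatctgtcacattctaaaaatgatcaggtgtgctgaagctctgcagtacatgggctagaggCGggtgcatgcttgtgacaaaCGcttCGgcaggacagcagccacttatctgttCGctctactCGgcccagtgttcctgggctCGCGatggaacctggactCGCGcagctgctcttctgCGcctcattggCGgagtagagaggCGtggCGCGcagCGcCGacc
Klhl9: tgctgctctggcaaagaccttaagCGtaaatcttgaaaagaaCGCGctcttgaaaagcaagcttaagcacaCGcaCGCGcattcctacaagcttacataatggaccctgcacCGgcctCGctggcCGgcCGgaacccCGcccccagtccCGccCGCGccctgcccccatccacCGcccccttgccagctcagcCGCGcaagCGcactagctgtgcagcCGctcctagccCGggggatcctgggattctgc
Gamt: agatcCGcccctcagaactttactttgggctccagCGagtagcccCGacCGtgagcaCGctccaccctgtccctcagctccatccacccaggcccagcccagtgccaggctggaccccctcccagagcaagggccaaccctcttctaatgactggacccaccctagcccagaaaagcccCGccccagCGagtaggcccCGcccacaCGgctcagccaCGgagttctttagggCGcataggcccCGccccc
These windows held 16 CpG in Mccc2, 20 in Klhl9 and 12 in Gamt, and those of Cda and Lhfpl4, not printed, held 8 and 16. Over the 13360 promoters of the same length the median was 13 CpG, and 27.5% of them had fewer than Cda and 76% fewer than Klhl9. Motifs of the unfolded protein response were searched on both strands as TGACGTGG (UPRE, 0.666% of all promoters), the ERSE consensus (0.135%) and TGATGCAAT (the ATF4 composite site, 0.0823%), and none of these strings occurred in these 5 windows. The absence of a match describes these letters in these windows and not the binding of a factor.

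Mccc2 (ENSMUSG00000021646) lies on chromosome 13 from 100069907 to 100152178 with 17 exons. It had 11.6, 9.35 and 6.90 CPM in WT NO and 0.439, 0.355 and 0.112 CPM in KO NO. After RA there were 11.1, 11.1 and 14.6 CPM in WT RA and 0.361, 0.0681 and 1.49 CPM in KO RA. WT libraries with and without RA overlapped, and every KO library lay far below every WT library. The deposited value of KO RA replicate 2 was 1.90, under the floor of 3 counts, so the Mccc2 level there is uncertain. After RA the KO level was 2.95%, 0.556% and 12.1% of the WT RA mean in replicates 1, 2 and 3, against 4.73%, 3.83% and 1.20% of the WT NO mean before RA. KO RA was lower than WT RA by −4.50 ± 0.79 (log2, edgeR adjusted p = 0.0245), or 22.7-fold, and by −5.91 ± 0.62 without KO RA replicate 3 (adjusted p = 0.000929). The call held in 10 of 19 alternatives. It was lost when only the 6 RA libraries were fitted (edgeR adjusted p = 0.178), and without WT NO replicate 1, KO NO replicate 1 or 2, any 1 of the WT RA libraries or KO RA replicate 1 (adjusted p up to 0.109). Its partner Mccc1 did not pass the test (9.66 CPM in WT NO and 12.6 in KO NO, log2 0.38 ± 0.23, edgeR adjusted p = 0.580, and after RA log2 0.08 ± 0.23, adjusted p = 0.895, or −0.11 without KO RA replicate 3, adjusted p = 0.769).

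Klhl9 (ENSMUSG00000070923), a gene of 1 exon on chromosome 4 from 88636529 to 88640702, followed a like course. It had 17.4, 17.8 and 22.3 CPM in WT NO and 2.93, 1.01 and 1.45 CPM in KO NO. After RA it had 21.0, 21.6 and 24.9 CPM in WT RA and 0.993, 0.954 and 6.84 CPM in KO RA. In KO RA the first and second replicate stood at 4.42% and 4.24% of the WT RA mean, and replicate 3, the library that stands apart, at 30.4%. KO RA against WT RA gave a log2 fold change of −3.03 ± 0.69 that just missed the threshold (edgeR adjusted p = 0.0610), and −4.53 ± 0.42 without KO RA replicate 3 (adjusted p = 0.000427). It passed in 4 of 20 alternatives, of which 1 leaves out a library. The others were DESeq2 (−2.79, adjusted p = 0.00312), limma-voom with quality weights (−4.49, adjusted p = 5.67e-05) and edgeR with library totals (−3.59, adjusted p = 0.00826), and with only the 6 RA libraries fitted it did not pass (edgeR adjusted p = 0.299). In both Mccc2 and Klhl9 the direction of KO RA against KO NO hung on that library and, in Klhl9, on its scaling: the log2 difference was 0.82 ± 0.81 and 0.61 ± 0.67 with it, and −0.58 ± 0.67 and −0.89 ± 0.39 without it. On the TPM scale, which leaves out TMM factors, replicate 3 stood at 5.06% of the WT RA mean for Mccc2 and 12.9% for Klhl9. The KO means on that same scale were 0.350 before and 0.362 after RA for Mccc2 and 2.09 and 1.70 for Klhl9.

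Cda (ENSMUSG00000028755) lies on chromosome 4 from 138065735 to 138095371 with 4 exons, far from Klhl9. It had 5.14, 5.14 and 4.24 CPM in WT NO and 0.937, 0.918 and 0.921 CPM in KO NO. After RA the levels were 7.60, 6.26 and 6.21 CPM in WT RA and 2.03, 2.86 and 1.29 CPM in KO RA. The 3 KO NO libraries were nearly equal, and on this scale both genotypes were higher after RA without overlap, WT by 0.47 ± 0.29 and KO by 1.17 ± 0.31 on the log2 scale (15.1% and 13.2% of all genes were higher without overlap in these comparisons). The KO level went from 19.1% of WT on average before RA to 30.4%, 42.8% and 19.3% after it. On the TPM scale, which leaves out TMM factors, the last of these was 8.51%. KO RA replicate 3 had 0.524 on that same scale against 1.08, 1.00 and 1.11 in KO NO, so in that library the direction depends on the scaling. KO RA was still lower than WT RA, by −1.67 ± 0.30 (log2, adjusted p = 0.0285 by edgeR), or 3.19-fold, and by −1.45 ± 0.24 without KO RA replicate 3 (adjusted p = 0.00687). The call held in 9 of 20 alternatives. It was lost with only the 6 RA libraries fitted (edgeR adjusted p = 0.176), with library totals in place of TMM factors (adjusted p = 0.336), and without any 1 of the WT RA or KO NO libraries or KO RA replicate 1 (adjusted p up to 0.140).

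Gamt (ENSMUSG00000020150), on chromosome 10 from 80089960 to 80096860 with 6 exons, had the largest log2 fold change of KO RA against KO NO of the 6. It had 10.99, 7.58 and 9.83 CPM in WT NO and 1.52, 1.90 and 1.48 CPM in KO NO. After RA there were 10.9, 9.21 and 11.8 CPM in WT RA and 6.77, 8.35 and 1.49 CPM in KO RA. WT libraries hardly differed with RA (log2 0.17 ± 0.45), whereas KO RA replicates 1 and 2 stood at 63.6% and 78.4% of the WT RA mean and replicate 3 at 13.97%, no higher than KO NO. KO RA against KO NO gave log2 1.78 ± 0.47, and 2.20 ± 0.22 without KO RA replicate 3. The difference from WT RA was −0.92 ± 0.46 (log2, edgeR adjusted p = 0.316), and −0.50 ± 0.22 without that library (adjusted p = 0.174), and did not pass the test in either. With library totals alone as the scale, replicates 1 and 2 stood at 88.1% and 104% of WT RA and replicate 3 at 6.003%, so how close Gamt came to WT depends on the scaling. Gamt overlaps Ndufs7 on the other strand, and the strand setting used in counting is not given in the sources used here. Ndufs7, a subunit of mitochondrial complex I, had 146 CPM on average in WT NO and in KO NO (log2 −0.00 ± 0.20, adjusted p = 1.00).

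Lhfpl4 (ENSMUSG00000042873) lies on chromosome 6 from 113145047 to 113172348 with 4 exons. It had 5.95, 6.36 and 11.5 CPM in WT NO and 1.14, 1.69 and 1.65 CPM in KO NO. After RA it had 2.79, 2.23 and 2.15 CPM in WT RA and 1.53, 1.33 and 1.49 CPM in KO RA. WT RA lay below WT NO without overlap, by −1.73 ± 0.33 on the log2 scale (14% of all genes were lower without overlap), and the KO level was within its spread of KO NO (log2 −0.04 ± 0.33). With TMM factors, all 3 KO RA libraries lay under the lowest WT RA library, at 64.2%, 55.6% and 62.2% of the WT RA mean. With library totals alone they stood at 87.8%, 74.2% and 25.8%. On that scale replicate 1 (TPM 1.933) lay just above WT RA replicate 3 (1.928), so the groups overlapped. The difference of KO RA from WT RA, −0.72 ± 0.33 (log2), did not pass edgeR's test (adjusted p = 0.287), nor did −0.75 ± 0.35 without KO RA replicate 3 (adjusted p = 0.206).

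Epop (ENSMUSG00000043439), a gene of 1 exon on chromosome 11 from 97518215 to 97520528, was the most abundant of the 6. It had 136, 153 and 151 CPM in WT NO and 68.7, 68.4 and 72.6 CPM in KO NO. After RA the levels were 71.9, 61.7 and 59.2 CPM in WT RA and 92.1, 107 and 47.7 CPM in KO RA. The WT RA libraries lay below the WT NO libraries without overlap (log2 −1.19 ± 0.27), near the untreated KO libraries. KO RA replicates 1 and 2 lay above every WT RA library, at 143% and 166% of the WT RA mean, and replicate 3 below all of them, at 74.2%. With library totals alone these were 198%, 220% and 31.6%. Over all libraries KO RA against WT RA did not pass the test (log2 0.36 ± 0.27, adjusted p = 0.514 by edgeR), while without KO RA replicate 3 it was higher by 0.62 ± 0.12 (adjusted p = 0.0129), and limma-voom with quality weights also called it higher (0.61, adjusted p = 0.00715).

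**Figure D2:**
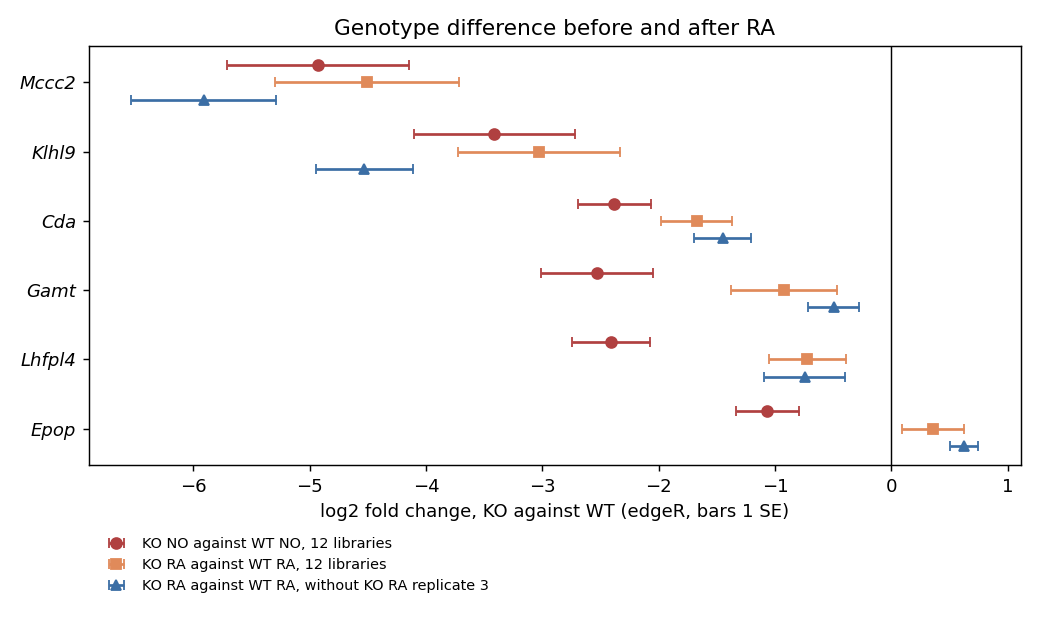
Log2 fold change of KO against WT (x axis, edgeR, bars at 1 SE) for the 6 genes before RA, after RA, and after RA without KO RA replicate 3. Mccc2 and Klhl9 stayed at or below −3.03 in all 3 estimates, Cda stayed between −2.38 and −1.45, Gamt and Lhfpl4 moved towards 0, and Epop crossed 0 after RA.

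Set side by side, the genotype difference after RA minus that before RA was 0.42 ± 1.02 for Mccc2, 0.38 ± 0.91 for Klhl9, 0.71 ± 0.42 for Cda, 1.61 ± 0.65 for Gamt, 1.69 ± 0.46 for Lhfpl4 and 1.42 ± 0.38 for Epop (log2 ± SE). Without KO RA replicate 3 these values were −0.99 ± 0.77, −1.13 ± 0.49, 0.92 ± 0.31, 2.03 ± 0.29, 1.66 ± 0.45 and 1.68 ± 0.16 in the same order. They contain the untreated libraries that chose the genes, so they are descriptions with no test. The last 3 genes in this order had similar differences made up of different parts. For Gamt the KO mean was higher with RA while the WT means were close, and for Lhfpl4 the WT mean was lower with RA while the KO means were close. For Epop the WT mean was lower with RA and the KO mean was log2 0.23 ± 0.27 above that of KO NO, and 0.50 ± 0.12 above it without KO RA replicate 3.

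**Figure D3:**
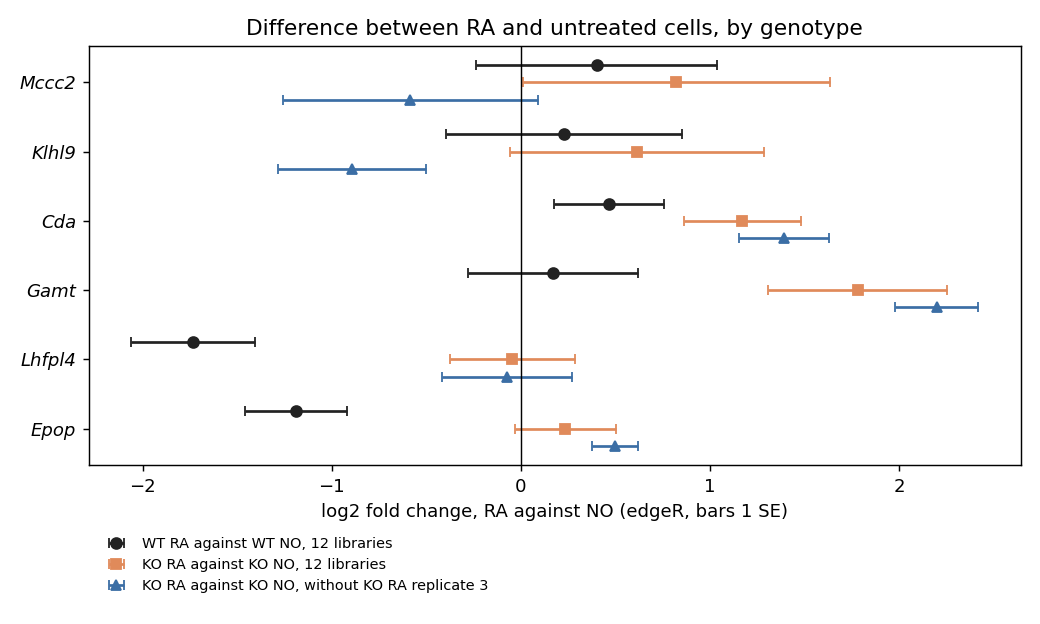
Log2 fold change of RA against NO cells (x axis, edgeR, bars at 1 SE) within WT and within KO, the latter also without KO RA replicate 3. The WT estimates of Lhfpl4 (−1.73) and Epop (−1.19) lie well under 0, the KO estimate of Gamt (1.78) well over 0, and those of Mccc2 and Klhl9 in KO change sign when KO RA replicate 3 is left out.

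In KO NO against WT NO 58 genes were called lower, and Epop was not among them. The 53 of these that are not among the 6 give a scale for these values. The median log2 fold change of the 53 was −2.12 before RA and −0.59 after it, where 41 of the 53 were negative and 8 were called lower. For the 6 genes the medians were −2.47 and −1.30, with 5 negative and 2 called lower after RA, and the median of all tested genes after RA was 0.09. Of all 16502 tested genes, 7322 were negative and 59 were called lower after RA. Without KO RA replicate 3, 17 of the 53 were called lower and 2 higher, where 5.44% and 4.42% of all genes were. These 53 were picked out in the same libraries, and they too lay closer to 0 after RA.

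Across the 12 libraries, the genes whose log2 CPM (prior count 2) ran most like each of the 6 included another of the 6 only for Mccc2 and Klhl9, which were each other's nearest of all tested genes (Pearson r = 0.968 over 12 libraries, 0.971 without KO RA replicate 3). The 12 points share 4 groups and their treatments, and such an r is a description. After Klhl9 and the unnamed ENSMUSG00000120693 (r = 0.962), Mccc2 was nearest to Ddx3y, an RNA helicase gene of the Y chromosome (0.945). Klhl9 was also near ENSMUSG00000120693 (0.945) and Vapa, which encodes an ER membrane tethering protein (0.939). Cda ran most like 4932422M17Rik (0.955), Ssc5d (0.948) and Rgl3 (0.947). Gamt ran most like Sema6c (0.969), Plxnd1, a semaphorin receptor (0.956), and Rph3al (0.953). Lhfpl4 followed Phyh, a peroxisomal enzyme of phytanic acid breakdown (0.931), Prepl (0.913) and Foxd3, a transcription factor (0.912), and Epop followed Coro1c (0.914), Nfatc2 (0.907) and Slc35c1 (0.906). Among the 6, Cda and Gamt also ran alike (0.935), while Epop and Klhl9 did not (0.149).

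The biochemical partners of the 6 genes were counted beside the share called over all genes, and a share near it is no result about the partners. Across 7 lists of pathway or complex members there were 111 tested genes other than the 6, and in KO NO against WT NO edgeR on all 12 libraries called 0 of them lower and 0 higher. At an unadjusted p under 0.05 there were 7 lower and 6 higher (6.37% of all genes were lower at that level), DESeq2 called 5 and 5, limma-voom with quality weights called 13 and 11, and edgeR without KO RA replicate 3 called 6 and 7 (4.35% and 4.43% of all genes). In KO RA against WT RA edgeR called 0 lower and 1 higher, against 6 lower and 1 higher without KO RA replicate 3 (5.44% and 4.42% of all genes), and 8 were lower at an unadjusted p under 0.05, as were 6.67% of all genes. The edgeR backgrounds on all 12 libraries were 0.351% called lower and 0.788% called higher before RA and 0.358% and 0.885% after it. Of all genes, DESeq2 called 3.02% lower and 3.13% higher before RA, and 2.95% and 5.02% after it. For limma-voom these shares were 10.8% and 10.9% before RA, and 8.36% and 9.77% after it. Counts by these tools for the single lists below are to be read beside them.

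Around Cda, 20 of 23 genes of pyrimidine nucleoside salvage and uptake were tested, and their median log2 fold change was −0.02 before RA and −0.08 after it (−0.23 without KO RA replicate 3). Before RA DESeq2 called 3 lower and 1 higher, limma-voom 3 and 2, and edgeR without KO RA replicate 3 called 2 and 1. After RA DESeq2 called 1 and 1, limma-voom 5 and 1, and edgeR without that library 2 and 1. Tk1, named after its values were seen, was called lower in that edgeR fit before RA (log2 −0.92, adjusted p = 0.00497) and after it (−0.64, adjusted p = 0.0334). Nt5c, a nucleotidase that removes phosphate from pyrimidine nucleotides, was with edgeR on all 12 libraries the 1 list gene called in either comparison. It was 1.77 ± 0.27 (log2) higher in KO RA than in WT RA (edgeR adjusted p = 0.0139), with 27.4 and 8.005 CPM, and 1.498 higher without KO RA replicate 3 (adjusted p = 0.00319). It was also 1.14 ± 0.26 higher before RA without passing edgeR's test (adjusted p = 0.0709), and was called higher there in the fit without KO RA replicate 3 (adjusted p = 0.00603). Upp1, the phosphorylase that splits the uridine made by Cda, had 16.4 ± 21.8 (SD) CPM in WT NO and 2.50 ± 1.68 CPM in KO NO. The SD in WT NO exceeded the mean, and the difference (log2 −2.72 ± 0.91) did not pass edgeR's test either (adjusted p = 0.222). The kinases Uck2 (log2 0.07 ± 0.35, adjusted p = 0.989) and Dck (−0.18 ± 0.29, adjusted p = 0.923) did not pass.

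Around Gamt, 3 of 6 genes of creatine synthesis, transport and storage were tested, with a median log2 of −0.25 before RA and 0.25 after it (0.59 without KO RA replicate 3). The creatine transporter Slc6a8 did not pass (15.7 CPM in WT NO and 13.2 in KO NO, log2 −0.25 ± 0.32, edgeR adjusted p = 0.885), and Gatm, which performs the step before Gamt, did not pass the filter on low counts. All 6 genes of the S-adenosylmethionine cycle were tested, with medians of 0.07 before and −0.44 after RA (−0.41 without KO RA replicate 3), and edgeR on all 12 libraries called 0 in either comparison. After RA, DESeq2 called 1 lower, limma-voom 2 and edgeR without KO RA replicate 3 called 1, and before RA limma-voom called 1 lower. At an unadjusted p under 0.05, 1 of them was lower before RA and 3 after it. Ahcy, which removes the product that inhibits methyltransferases and was named after its value was seen, was called lower in KO RA without KO RA replicate 3 (log2 −1.10, edgeR adjusted p = 0.00741).

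Around Mccc2, all 19 genes of leucine breakdown and the biotin carboxylases were tested, with medians of −0.07 before and −0.02 after RA (0.00 without KO RA replicate 3), and edgeR on all 12 libraries called 0 in either comparison. Before RA, DESeq2 called 1 higher, limma-voom 2, and edgeR without KO RA replicate 3 called 1. At an unadjusted p under 0.05 there was 1 higher before RA and 1 lower after it. Besides Mccc1, the enzymes on either side of the carboxylase did not pass before RA: Ivd had log2 −0.21 ± 0.36 (edgeR adjusted p = 0.929) and Auh −0.12 ± 0.23 (adjusted p = 0.943). Around Klhl9, 32 of 46 genes of the KLHL family and the CUL3 ligase were tested, with medians of −0.06 before RA and 0.19 after it (0.07 without KO RA replicate 3). Of these, edgeR on all 12 libraries called 0 in either comparison, while before RA DESeq2 called 2 lower and 3 higher, limma-voom 6 and 4, and edgeR without KO RA replicate 3 called 3 and 3. Cul3 itself had log2 −0.35 ± 0.23 before RA (adjusted p = 0.643), and the mitotic partners Klhl13 (−0.04 ± 0.25, adjusted p = 0.990) and Klhl21 (0.28 ± 0.32, adjusted p = 0.863) did not pass.

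Around Lhfpl4, 16 of 24 genes of the LHFPL family and the inhibitory synapse were tested, with medians of −0.16 before RA and 0.64 after it (0.43 without KO RA replicate 3), and edgeR on all 12 libraries called 0 in either comparison. Before RA limma-voom called 1 lower and 1 higher and DESeq2 called 0, and at an unadjusted p under 0.05 in edgeR there were 0 before RA and 1 higher after it. Nlgn2 had log2 −0.45 ± 0.55 (edgeR adjusted p = 0.879) and the scaffold gene Gphn 0.53 ± 0.40 (adjusted p = 0.712) before RA. Lhfpl3 did not pass the filter on low counts. Around Epop, 15 of 16 genes of PRC2 and elongin BC were tested, with medians of −0.01 before RA and −0.03 after it (−0.08 without KO RA replicate 3). Of these, edgeR on all 12 libraries called 0 in either comparison, while before RA limma-voom called 2 lower and 2 higher and edgeR without KO RA replicate 3 called 1 and 2. The catalytic subunit Ezh2 had log2 −0.11 ± 0.35 before RA (adjusted p = 0.972), and the core subunits Suz12 (0.25 ± 0.24, adjusted p = 0.801) and Eed (0.25 ± 0.54, adjusted p = 0.951), the accessory subunit Mtf2 (0.37 ± 0.24, adjusted p = 0.637) and the elongins Elob (−0.33 ± 0.66, adjusted p = 0.946) and Eloc (−0.73 ± 0.78, adjusted p = 0.840) did not pass. Without KO RA replicate 3, Elob (log2 −1.01, adjusted p = 0.00556) and Eloc (−0.76, adjusted p = 0.0409) were called lower after RA, and with it they had log2 0.77 and 1.505 without passing, so their direction turned with that library.

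Genes next to the 6 on their chromosomes were counted in the same way. Of 134 tested genes within 500000 bases of a member, edgeR on all 12 libraries called 0 lower and 1 higher in KO NO against WT NO, where 0.351% and 0.788% of all genes were called. At an unadjusted p under 0.05 there were 11 lower and 4 higher (6.37% of all genes were lower). DESeq2 called 5 and 1 (3.02% and 3.13% of all genes) and limma-voom with quality weights 25 and 13 (10.8% and 10.9% of all genes). Without KO RA replicate 3 edgeR called 13 and 2, or 9.70% and 1.49% of the 134 beside 4.35% and 4.43% of all genes. In KO RA against WT RA edgeR called 2 lower and 0 higher (0.358% and 0.885% of all genes), and without KO RA replicate 3 it called 14 and 2 (5.44% and 4.42% of all genes). DESeq2 called 6 and 5 after RA (2.95% and 5.02% of all genes) and limma-voom 22 and 11 (8.36% and 9.77% of all genes). At an unadjusted p under 0.05 in edgeR, 8 were lower and 5 higher after RA (6.67% of all genes were lower). The gene called higher was Fstl3, which encodes an inhibitor of activins, 471496 bases from Gamt (log2 4.48 ± 0.88, edgeR adjusted p = 0.0360). None of the nearest tested protein-coding genes on either side was called in KO NO by edgeR on all 12 libraries: these were Pink1 and Mul1 for Cda, Pwwp3a and Dazap1 for Gamt, Cartpt and Bdp1 for Mccc2, Hacd4 and Mtap for Klhl9, Setd5 and Mtmr14 for Lhfpl4, and Srcin1 and Mllt6 for Epop. Dazap1 begins 460 bases from Gamt and had 139 CPM in WT NO and 168 CPM in KO NO (log2 0.27 ± 0.26, adjusted p = 0.802). Bdp1, 2324 bases from Mccc2, had 14.4 and 11.6 CPM (log2 −0.31 ± 0.35, adjusted p = 0.859). Cartpt, a neuropeptide gene, was at 0 in all 3 KO NO libraries and had a mean of 0.0882 CPM in WT NO, at the floor, so no fold change is given.

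The windows of Mccc2, Lhfpl4 and Epop leaned lower in KO NO, where edgeR on all 12 libraries called 0 of their genes. In that order DESeq2 called 1, 3 and 1 of them lower (3.02% of all genes) and limma-voom with quality weights 3, 10 and 5 (10.8% of all genes). Without KO RA replicate 3 edgeR called 1, 7 and 4 lower (4.35% of all genes). All 7 tested genes around Mccc2 had a negative log2 fold change (median −0.46), as did 20 of 23 around Lhfpl4 (median −0.43) and 22 of 30 around Epop (median −0.35). Over all genes, 8538 of the 16502 tested were negative. Chromosome 13, which also carries Faf2, leaned lower as a whole, with 76.7% of its 648 tested genes negative before RA and a median of −0.36, against −0.02 for all tested genes. Chromosome 17, which carries neither Faf2 nor any of the 6, had 84.8% of its 794 tested genes negative and a median of −0.47. Chromosomes 6 and 11 had 59.6% and 60.7% of their tested genes negative and medians of −0.15 and −0.12. Around Cda 4 of 10 genes, around Gamt 30 of 59 and around Klhl9 1 of 5 were negative. Leaving out Cartpt, the lowest of the genes around Mccc2 was Map1b at −1.16, against −4.93 for Mccc2.

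**Figure D4:**
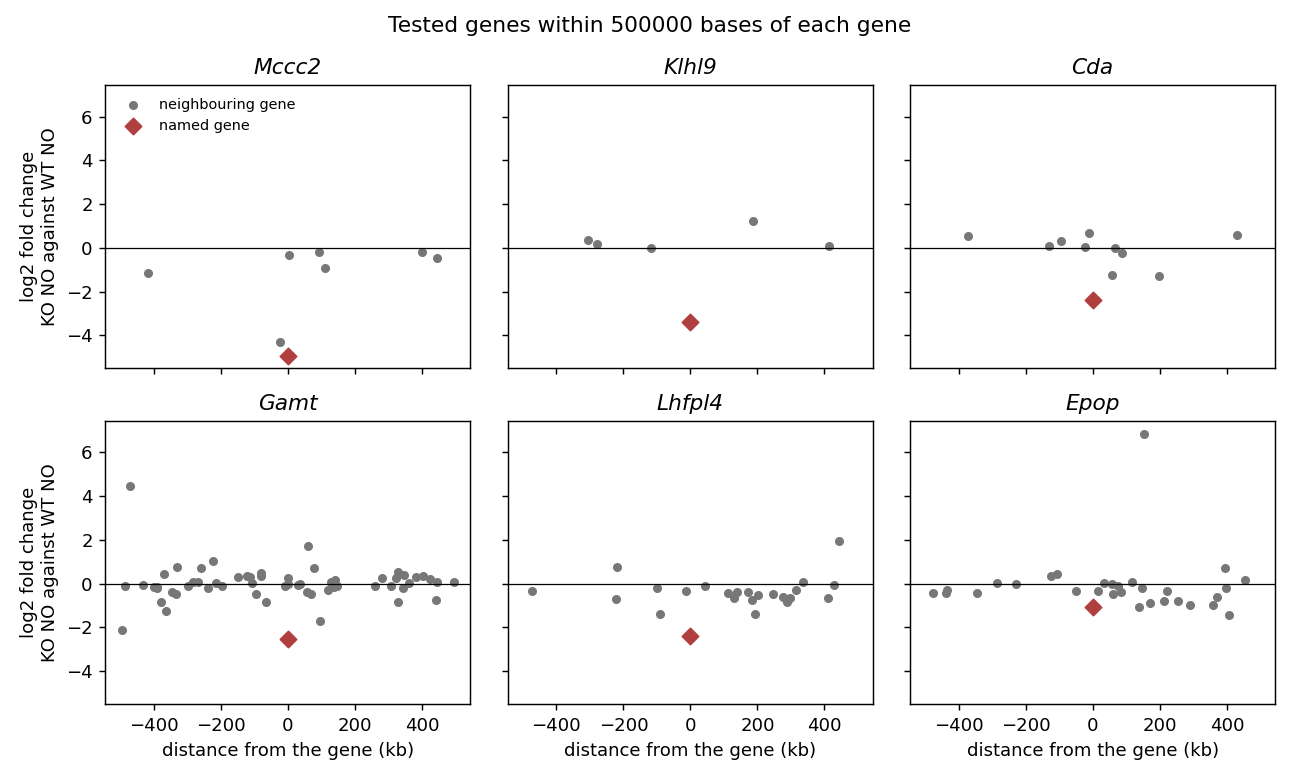
Log2 fold change in KO NO against WT NO (y axis, edgeR) of each tested gene within 500000 bases of the 6 genes (grey points) by distance (x axis, kb, 0 for genes that overlap), with the gene itself as a red diamond. The lone low point beside Mccc2 is Cartpt, at the floor in both groups, the point at 6.86 beside Epop is the small nucleolar RNA Snora21, which was not called, and the point at 4.48 beside Gamt is Fstl3.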

How the data were processed

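Bulk mRNA-Seq of 12 NE-4C libraries in 4 groups of 3 was analysed. Reads were processed by the authors with nf-core/rnaseq at its defaults (STAR, then Salmon) against GRCm39, and they deposited estimated counts per gene that are scaled from TPM, so that they are corrected for length and not normalized between libraries. Exonic length and value ran opposite ways (Spearman −0.749) over the 3851 genes detected in a single library. A value is therefore not a number of fragments, and the floors cover counting error only. Values were rounded, filtered with filterByExpr, scaled with TMM and fitted with edgeR 4.0.16 (robust quasi-likelihood, 1 coefficient per group, R 4.3.3), with Benjamini-Hochberg adjustment over 16502 genes and calls at an adjusted p under 0.05. Groups came from the deposited sample records. For the 6 genes, KO RA against WT RA was the comparison tested. The members and lists were chosen with earlier results of these data known. Other genes named are Faf2, the marker Pax6, and genes of the lists that were called or marked as partners. Also named are nearest tested protein-coding neighbours, genes called within 500000 bases, and the 3 most correlated genes. Positions came from GENCODE and the GRCm39 sequence, matched for 16444 of the tested genes. Alternatives were DESeq2 1.42.0, its size factors in edgeR, 2 other filters, fewer libraries, limma-voom (limma 3.58.1), a replicate block, leaving out each library, and, added after the values were seen, library totals only. The edgeR step was also run on simulated counts that lack the composition of KO RA replicate 3. They do not bear on that library, and their outcome is not given here. A promoter and a gene that these rules cover are not reported here.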

Additional observations from a re-analysis of the deposited data

How the results depend on the processing

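In KO RA against WT RA, no alternative run turned the direction of any of the 6 genes, but Mccc2, Cda, Klhl9 and Epop were on the other side of the threshold in some of them. Gamt and Lhfpl4 passed in none of 20 alternatives. With DESeq2, Klhl9 passed (−2.79) and the genes called numbered 1315 after RA and 1015 before it, against 205 and 188. Without a filter, Cda gave −1.70 (adjusted p = 0.0515) and 1 of the 6 was called lower. With at least 10 counts in every library, Mccc2 was not tested, 1 of the 6 was called lower, and 80 and 43 genes were called. With only the libraries compared, Cda (−1.67) and Mccc2 (−4.40) lost their calls, 0 of the 6 were called, and 16 and 718 genes were called. With limma-voom, Klhl9 (−4.49) and Epop (0.61) passed, and 2993 and 3575 genes were called. With the replicate number as a block, Cda (−1.72, adjusted p = 0.0690) and Mccc2 (−4.58, adjusted p = 0.0729) lost their calls, 0 of the 6 were called, and 59 and 56 genes were called. Libraries with the same number did not deviate together (correlations −0.167 to 0.0677), and a library correlated best with its own number in 11 of 36 cases. No pairing by number was seen, but with 3 libraries per group this check cannot exclude it. With library totals only, Cda (−1.49) lost its call and Klhl9 (−3.59) passed, and 89 and 112 genes were called. The cause was not tested.

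Leaving out each library in turn gave −1.96 to −1.45 for Cda, which passed in 5 of 12, −1.33 to −0.50 for Gamt, −5.91 to −3.78 for Mccc2, which passed in 5 of 12, −4.53 to −2.50 for Klhl9, −0.80 to −0.60 for Lhfpl4 and 0.14 to 0.62 for Epop. Klhl9 and Epop passed only without KO RA replicate 3. Between 0 and 3 of the 6 genes were called lower: 0 without KO NO replicate 1 or 2, any WT RA library or KO RA replicate 1, 1 without WT NO replicate 1 or KO NO replicate 3, 2 without WT NO replicate 2 or 3 or KO RA replicate 2, and 3 without KO RA replicate 3. The genes called ranged from 19 (without WT RA replicate 1) to 1707 (without KO RA replicate 3) after RA, and from 40 (without KO NO replicate 1) to 1521 (without KO RA replicate 3) before it. Mccc2 in KO RA rests on few counts.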
